A study of Mus musculus with 24 samples.

Results

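At 1 h after injection, the livers of replicates 4 to 6 were compared with those of replicates 1 to 3, over all genes and across both treatments. The libraries were chosen by the replicate number in the labels alone: of 24 libraries in the series, 12 were taken at 1 h, and 6 of these fell in each set (3 vehicle and 3 MitoCDNB). All came from the medial liver lobe of C57BL/6 mice that received vehicle with 0.1% ethanol or MitoCDNB at 5 mg/kg. The labels give 6 mice for each treatment and time, so p-values measure the spread between mice. They do not say what separates replicates 1 to 3 from replicates 4 to 6, but the library numbers follow the same order, with 13 to 18 in the first set and 19 to 24 in the second. The 12 libraries of 4 h, numbered 1 to 12, had the same treatments and served to show levels only.

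The liver is made mostly of hepatocytes, which secrete plasma proteins, oxidise fatty acids and clear foreign compounds. Between them lie Kupffer cells (resident macrophages), endothelial and stellate cells and the cells of the bile ducts. MitoCDNB is chlorodinitrobenzene joined to a cation that draws it into mitochondria, and was designed to lower glutathione there and to block thioredoxin reductase. Neurons release transmitter from vesicles through a machinery that includes Snap25, load glutamate into those vesicles with Slc17a7, and carry the kinase Camk2a at the receiving side of the synapse. Such genes are used as markers of brain tissue and are little transcribed by hepatocytes.

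Both sets had the profile of liver. Albumin (Alb) ran from 28700 to 38700 CPM (reads per 1 M reads of the library, after TMM scaling) in replicates 1 to 3 and from 31900 to 37900 CPM in replicates 4 to 6, and the urea cycle enzyme Cps1 from 2510 to 3280 and from 2320 to 2990 CPM. Total counts were 27.5 to 36.5 M in replicates 1 to 3 and 25.96 to 34.3 M in replicates 4 to 6 (n = 6 each; exact permutation test within treatment, two-sided p = 0.37, where 0.005 is the smallest p the design allows). The 20 genes named Mup, which code for major urinary proteins, took 30.6% ± 3.97 and 24.8% ± 8.59 of the counts (exact p = 0.175). The number of genes with a count was 16403 ± 163 and 16751 ± 176 (exact p = 0.015, adjusted over 4 library measures p = 0.06). Scores on the first principal component (26.1% of the variance in log2 CPM) overlapped, from -19.1 to 19.9 and from -20.0 to 23.8, as did those on components 3 and 4. Scores on the second, which held 14.2% of the variance, ran from -27.9 to 0.313 in replicates 1 to 3 and from -1.79 to 21.4 in replicates 4 to 6, with a small overlap.

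Of 13363 genes tested with edgeR's quasi-likelihood test and treatment in the model, 25 were called at a Benjamini-Hochberg adjusted p under 0.05, which is 0.187% of the genes. Of these, 19 were higher in replicates 4 to 6 (0.142%) and 6 were lower (0.0449%). The median size of the 25 changes was 0.75 on the log2 scale, and 10 were at least 2-fold. Without adjustment 1662 genes (12.4%) had a p under 0.05. The count of 25 ran from 12 to 59 when 1 library was left out at a time, and DESeq2 called 233 genes. Over all genes tested the median log2 fold change, given here as replicates 4 to 6 minus replicates 1 to 3 throughout, was 0.0007. The plot of change against level shows that the largest called changes lay among genes of very low level.

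**Figure D1:**
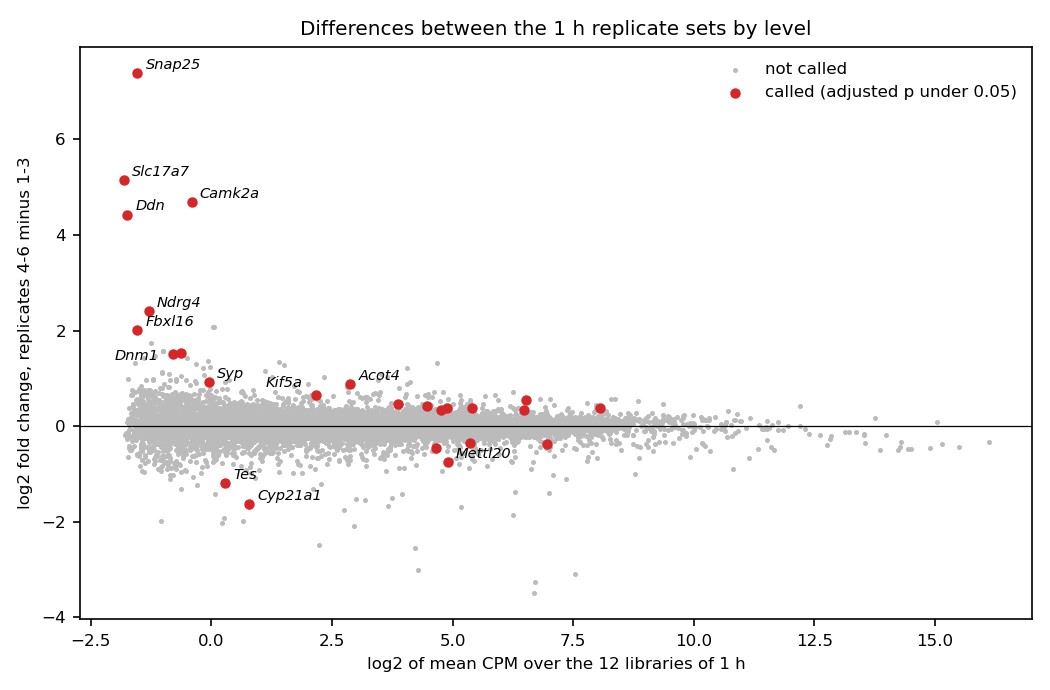
Log2 fold change (replicates 4 to 6 minus 1 to 3, vertical) against the log2 of the mean CPM over the 12 libraries of 1 h (horizontal), 1 point for each of 13363 genes tested. Red points are the 25 called genes, and most of those with a change of at least 0.6 carry their names. The points furthest up, Snap25, Slc17a7, Camk2a and Ddn, lie at the low end of the level axis, and the fitted height of Snap25, which has no read in 1 set, depends on the prior count and is no bound.

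Genes of the synapse were present at low counts in all 6 libraries of replicates 4 to 6 and nearly absent from replicates 1 to 3. Snap25, which joins vesicle and cell membranes (protein coding, chr2:136713453-136782428 in mm10, plus strand), had no read in any library of replicates 1 to 3. In replicates 4, 5 and 6 it had 17, 17 and 29 reads in vehicle and 12, 16 and 39 in MitoCDNB. It also had no read in the 12 libraries of 4 h. Replicates 4 to 6 of 1 h were thus the only libraries of the series with Snap25 reads. Against a floor of 3 counts over the set of replicates 1 to 3, it was at least 41.4-fold higher in replicates 4 to 6 (adjusted p = 0.0052).

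The vesicular glutamate transporter Slc17a7 (protein coding, chr7:45163949-45176142, plus strand) had 2 reads in replicates 1 to 3, both in MitoCDNB replicate 3. It had 18, 20 and 14 reads in vehicle replicates 4, 5 and 6 and 13, 19 and 17 in MitoCDNB. The ratio of the CPM-scaled counts was 48.3, with a 95% counting interval of 13 to 404 (adjusted p = 0.0013). The kinase Camk2a had 9 reads in the 6 libraries of replicates 1 to 3, with at most 5 in a library. It had 50, 47 and 49 reads in vehicle replicates 4, 5 and 6 and 36, 29 and 55 in MitoCDNB, a log2 fold change of 4.70 (SE 0.47, adjusted p = 0.00086). Neither gene overlapped between the sets, and at 4 h no library had more than 3 reads of Slc17a7 or 7 of Camk2a.

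Other neuronal genes rose from a low but measurable level. Dnm1, the dynamin that retrieves synaptic vesicles, had 4 to 15 reads per library in replicates 1 to 3 and 18 to 36 in replicates 4 to 6 (log2 1.52, SE 0.27, adjusted p = 0.0345). The vesicle protein Syp rose from 0.661 ± 0.128 to 1.26 ± 0.142 CPM (mean ± SD, n = 6 each; log2 0.93), and the kinesin heavy chain Kif5a, a motor of axonal transport, from 3.48 ± 0.41 to 5.45 ± 0.603 CPM (log2 0.64). The sets did not overlap for any of these genes. In 12 fits that each left out 1 library, Kif5a was called in 8, and Dnm1 and Syp in 2. Over all genes tested, 81 (0.606%) lay higher without overlap and 45 (0.337%) lower without overlap.

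Ddn, Ndrg4 and Fbxl16 were also called and are named here after their values were seen. Ddn, which codes for the dendrite protein dendrin, had 4 reads in replicates 1 to 3 and 105 in replicates 4 to 6, between 12 and 27 per library. Ndrg4 had 22 and 125 reads and Fbxl16 24 and 103. All 3 were without overlap between the sets at 1 h, with log2 fold changes of 4.43, 2.40 and 2.01 in this order. In replicates 1 to 3 no library had more than 2, 7 and 7 reads of them. That is below the level of the filter on low counts (minimum count 10). All 3 were thus tested only through the set in which they are high, and their direction was fixed by that. Fbxl16 reached 12 reads in libraries of 4 h, the count of its lowest library in replicates 4 to 6, while Ndrg4 stayed at or below 6 there.

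**Figure D2:**
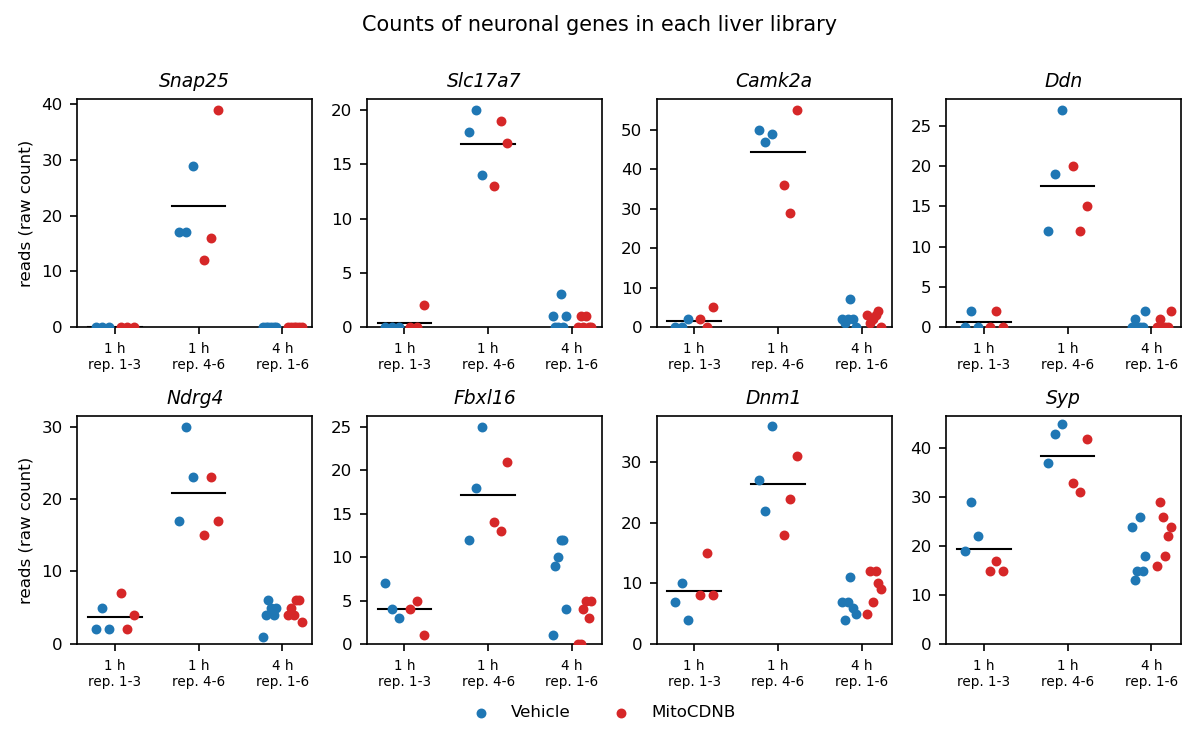
Raw reads (vertical) of 8 called genes in each library of 1 h replicates 1 to 3, 1 h replicates 4 to 6 and 4 h, with blue points for vehicle and red points for MitoCDNB and a line at the mean of each 1 h set. Snap25 stands at 0 reads in every library but those of 1 h replicates 4 to 6, where it has 12 to 39.

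The 14 lists of markers of brain cells and regions held 81 tested genes. Of these, 7 were called, all higher, beside 25 of 13363 genes (0.187%) over all genes tested. Among the 7 were Snap25, Dnm1, Syp, Slc17a7, Camk2a and Ppap2b. Ppap2b, a lipid phosphatase that is listed as an astrocyte marker, is also a liver gene at these levels (79.3 ± 9.62 and 99.7 ± 9.51 CPM, n = 6 each). Snap25, Slc17a7 and Camk2a had no library of replicates 1 to 3 at the level the filter on low counts asks for, so they were tested only through the set in which they are high, and their direction was fixed by that. Of the 59 tested members that reached this level in all 6 libraries of replicates 1 to 3, 2 were called (Syp and Ppap2b). The median log2 fold change of the 81 was 0.19, beside 0.0007 for all genes, and 10 of the 14 lists had no called member. Medians were -0.23 for microglia, -0.03 for oligodendrocytes and -0.03 for cortex and hippocampus. The 10 lists of other tissues (among them pancreas, gut, kidney, muscle, lung and peripheral nerve) held 15 tested genes. Of these, 0 were called by edgeR, DESeq2 or limma-voom and 2 (13.3%) had an unadjusted p under 0.05. Over all genes edgeR's shares were 0.187% and 12.4%, so 0 calls among 15 genes do not set these lists apart from all genes. All lists were chosen with earlier results of these data known, so their counts describe the sets and do not support them independently.

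Most brain genes were too low to be tested, and raw reads show them better. Of the 224 listed brain genes in the table, 77 were quiet at 4 h, which means at most 2 reads in total over the 12 libraries of that time. These 77 genes had 20 reads in replicates 1 to 3, between 1 and 6 per library. In replicates 4 to 6 they had 719 reads, with 98, 114 and 144 in vehicle replicates 4, 5 and 6 and 104, 105 and 154 in MitoCDNB. Every library of the second set was thus far above every library of the first, in both treatments. Of the 77 genes, 20 had a read in all 6 libraries of replicates 4 to 6, and 0 had a read in all 6 of replicates 1 to 3. Of the listed genes of other tissues, 42 were quiet at 4 h by the same rule, and they had 23 reads in replicates 1 to 3 and 9 in replicates 4 to 6. MitoCDNB replicate 1 alone held 14 of the 23, of which 13 were in intestine and stomach markers, and without it the count was 9 and 9. All genes of the table that were quiet at 4 h (6718) had 1734 and 4104 reads.

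**Figure D3:**
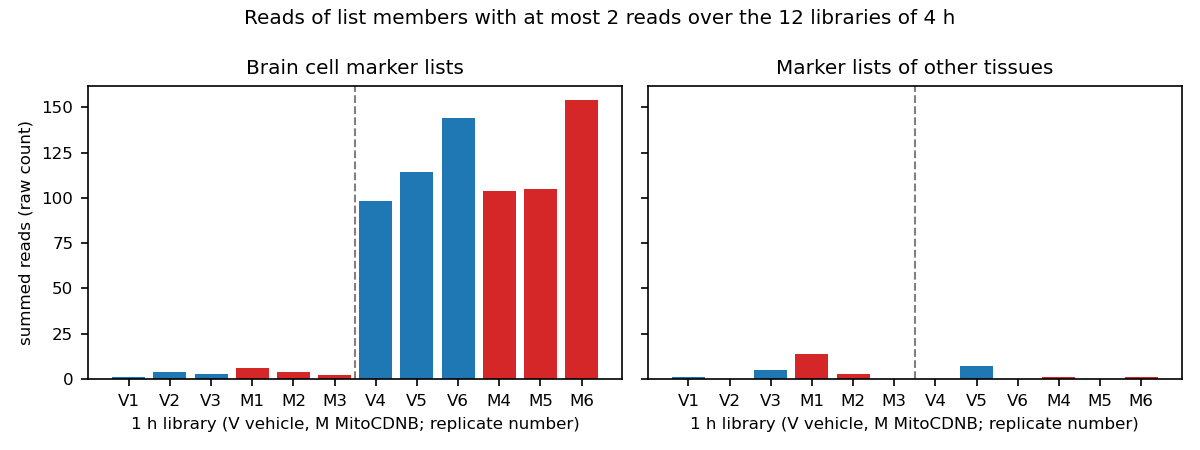
Summed raw reads (vertical, from 0) in each library of 1 h for the listed genes with at most 2 reads over the 12 libraries of 4 h, at left 77 genes of the brain lists and at right 42 genes of the lists of other tissues. V is vehicle, M is MitoCDNB, the digit is the replicate number, and the dashed line parts replicates 1 to 3 from 4 to 6. The brain genes have 98 to 154 reads in each library to the right of the line and 1 to 6 in each library to its left.

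Among the 14 brain lists, that of neuron markers held the most of these reads. Its 9 quiet members had 1 read in replicates 1 to 3 and 310 in replicates 4 to 6. Among them, Vsnl1 and Nell2, a calcium sensor and a secreted protein of neurons, had 0 reads in replicates 1 to 3 and 41 and 39 in replicates 4 to 6. Vesicle release genes had 1 and 78 reads, and Cplx1, which clamps vesicle fusion, 0 and 36. Genes of glutamate neurons and receptors had 0 and 62 reads, of which the receptor subunit Gria2 gave 29. Genes of GABA neurons had 2 and 90, and Gad1, which makes the inhibitory transmitter GABA, had 0 and 19. Reads of genes that mark excitatory neurons and of genes that mark inhibitory neurons were thus both counted in replicates 4 to 6. The source of these reads was not tested.

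Glial genes were there as well. Quiet genes numbered 3 for astrocytes and 3 for oligodendrocytes, beside 3 for vesicle release, 5 for glutamate and 10 for GABA genes. The sums are not scaled for these numbers, so they do not rank the cell types. Quiet astrocyte markers had 1 read in replicates 1 to 3 and 52 in replicates 4 to 6, among them Mt3, a brain metallothionein, with 1 and 25. Quiet oligodendrocyte markers had 0 and 18 reads, and Mobp, a myelin protein, had 15 of these. The myelin gene Mbp is also read in these livers, at 0.584 ± 0.158 CPM in replicates 1 to 3 and 1.38 ± 0.376 CPM in replicates 4 to 6 (n = 6 each). It did not overlap between the sets, but missed the threshold of edgeR's test (adjusted p = 0.0507). Of the oligodendrocyte precursor markers, 1 was quiet at 4 h (Neu4), and it had no read in any library. Another, Ptprz1, had 11 reads in replicates 1 to 3 and 24 in replicates 4 to 6. No microglia marker was quiet at 4 h, so the same count could not be made for microglia. Of the 9 microglia markers 6 were tested, of which 0 were called by edgeR, DESeq2 or limma-voom and 1 had an unadjusted p under 0.05, and their reads went both ways: Tmem119 had 142 reads in replicates 1 to 3 and 101 in replicates 4 to 6, P2ry12 144 and 146, Sall1 2798 and 3377, and Gpr34, without overlap, 4 and 14.

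Between brain regions, the reads were unequal. Quiet markers of cerebral cortex and hippocampus had 0 reads in replicates 1 to 3 and 38 in replicates 4 to 6. Striatum markers had 2 and 8 reads, and cerebellum markers 0 and 4. Markers of hypothalamus and pituitary had 7 and 4 reads, and those of thalamus, midbrain and hindbrain 3 and 1. The hypothalamic peptide genes Avp and Hcrt had no read in any library of the series. The lists differ in how many genes they hold and in how strongly those genes are transcribed, so their reads are given as counts and the regions were not tested against each other.

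Seen without the lists, the same asymmetry appeared over all genes. At most 2 reads in replicates 1 to 3 together with a read in at least 5 libraries of replicates 4 to 6 were found for 175 genes, of which 37 were in the brain lists and 94 had no read at all in replicates 1 to 3. With the sets exchanged there were 22 genes, of which 0 were in the brain lists. Besides those already named, the highest counts were those of Eef1a2 (the elongation factor of neurons and muscle), with 0 and 78 reads, and Hpcal4 (a neuronal calcium sensor), with 0 and 61. Cdk5r2, an activator of the neuronal kinase Cdk5, had 0 and 41. These 3 were named after their values were seen. When edgeR was run with no filter on low counts, 94 genes were called, 76 higher and 18 lower, or 0.396% and 0.0938% of 19193 genes. Of the 203 listed brain genes with a read at 1 h, 21 were among the higher ones (10.3%) and 0 among the lower ones.

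The set difference was also computed within each treatment. All 25 called genes had the same sign in vehicle and in MitoCDNB. Calling them on the effect over both treatments makes this likely in advance, so the shared sign is a description only. Camk2a differed by 5.97 on the log2 scale in vehicle and by 3.84 in MitoCDNB, and Syp by 0.87 and 0.99. Within vehicle alone 15 genes were called (0.112%), 9 higher (0.0674%) and 6 lower (0.0449%), and Snap25, Slc17a7, Camk2a, Ddn, Ndrg4, Dnm1 and Cyp21a1 were the ones also called over both treatments. Within MitoCDNB alone 1 gene was called (0.00748%): Fam13a, higher by 1.55, named after its values were seen and not among the 25. Beside it, 9.95% of genes had an unadjusted p under 0.05 there. These counts rested on single libraries: within vehicle the count was 0 without vehicle replicate 2 and 89 without vehicle replicate 3, and within MitoCDNB it was 0 without MitoCDNB replicate 3. No gene was called by edgeR for a set difference that itself differed between treatments (0%), with a smallest adjusted p of 0.165. Without adjustment 1249 genes (9.35%) had a p under 0.05 for that interaction, and DESeq2 called 40 genes, limma-voom 0. The smallest p values of the interaction belonged to Kdm7a, Lyst and Sipa1l2. Kdm7a, a histone demethylase, differed by -0.67 in vehicle and 0.25 in MitoCDNB.

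Genes with a clear level in liver changed as well, by less. Acot4, a peroxisomal thioesterase (chr12:84038379-84048601, plus strand), had 5.29, 5.98 and 5.87 CPM in vehicle replicates 1 to 3 and 14.6, 8.92 and 8.05 CPM in vehicle replicates 4 to 6. In MitoCDNB it had 4.82, 4.9 and 4.21 CPM and then 7.07, 7.06 and 11.3 CPM. All 6 libraries of the second set were above all 6 of the first (log2 0.87, SE 0.16, adjusted p = 0.0403). Its neighbour and paralog Acot1, a cytosolic thioesterase, also lay higher without overlap (7.48 ± 1.17 and 14.5 ± 5.5 CPM) but was not called (adjusted p = 0.0718). The sources used here do not say how reads shared by such paralogs were counted, which leaves the values of Acot4, Acot1 and Ces1e uncertain. Acot4 kept its call in 2 of 12 fits that each left out 1 library.

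Enzymes and transporters of the hepatocyte made up most of the other higher genes. Ces1e, a carboxylesterase, rose from 74.8 ± 12.3 to 108 ± 10.2 CPM (log2 0.54, adjusted p = 0.0186), with MitoCDNB replicate 3 overlapping the second set. Ephx1, the microsomal epoxide hydrolase (chr1:180976210-181020904, minus strand), had a lowest, median and highest value of 223, 230 and 244 CPM in replicates 1 to 3 and 262, 302 and 337 CPM in replicates 4 to 6 (log2 0.38, adjusted p = 0.0345). Its range was wider in the second set, but the sets did not overlap. Atp7b, the copper pump of hepatocytes, rose from 12.4 ± 0.656 to 16.9 ± 0.878 CPM (log2 0.45, adjusted p = 0.00477). Slc2a9, a urate transporter, rose from 23.9 ± 1.94 to 30.2 ± 2.35 CPM (log2 0.34). When 1 library was left out, Atp7b was called in 12 of 12 fits, Ces1e in 11, and Ephx1 and Slc2a9 in 2.

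Klb, the FGF21 coreceptor, depended on both treatment and set. In vehicle it was 13.8 ± 1.44 CPM in replicates 1 to 3 and 19.8 ± 1.79 in replicates 4 to 6, and in MitoCDNB 24.5 ± 1.34 and 30.3 ± 2.74 (n = 3 each). The sets overlapped only across treatments, and within each treatment the second set was above the first (log2 0.41, adjusted p = 0.0345). The remaining higher genes were Bcl9l, a cofactor of beta-catenin (log2 0.38), Sphk2, a sphingosine kinase (0.39), and Ppap2b (0.33). Of the 12 fits without 1 library, Ppap2b was called in 8, Sphk2 in 4, Klb in 3 and Bcl9l in 2. Sphk2 overlaps the genes Dbp and Rpl18 on the other strand, and Bcl9l overlaps Cxcr5. The handling of strand is not stated, so reads of these pairs cannot be told apart. Dbp ran from 3.73 to 25.9 and from 8.69 to 29.5 CPM (adjusted p = 0.603), Rpl18 at 115 ± 7.3 and 112 ± 3.2 CPM, and Cxcr5 at 0.453 ± 0.176 and 0.6 ± 0.0885 CPM (n = 6 each).

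The 6 lower genes were Mettl20, Rpl22l1, Cd302, Pdia5, Tes and Cyp21a1. Mettl20 (now Etfbkmt), which methylates the electron transfer flavoprotein of mitochondria (chr6:149139849-149151171, plus strand), fell from 32.8 to 41 CPM per library in replicates 1 to 3 to 15.4 to 29.9 CPM in replicates 4 to 6 (log2 -0.75, adjusted p = 0.0485). Rpl22l1, a paralog of a ribosomal protein (chr3:28805436-28807424, plus strand), fell from 29.1 ± 2.72 to 21.2 ± 2.45 CPM (log2 -0.46, adjusted p = 0.0105). Cd302, a C-type lectin receptor, fell from 139 ± 11.7 to 108 ± 6.96 CPM (log2 -0.36), and Pdia5, a disulfide isomerase of the endoplasmic reticulum, from 46.3 ± 3.15 to 36.4 ± 2.8 CPM (log2 -0.35). Tes, which codes for the adhesion protein testin, fell from 1.69 ± 0.611 to 0.724 ± 0.154 CPM (log2 -1.20). None of these 5 overlapped between the sets. Rpl22l1 was called in 12 of the 12 fits without 1 library, Cd302, Pdia5 and Tes in 3, and Mettl20 in 2.

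Cyp21a1, the steroid 21-hydroxylase that is characteristic of the adrenal cortex, was called too and is named after its values were seen. In vehicle it was 3.98 ± 0.382 CPM in replicates 1 to 3 and 1.15 ± 0.27 CPM in replicates 4 to 6, and in MitoCDNB 1.23 ± 0.642 and 0.465 ± 0.149 CPM (n = 3 each). It was lower in the second set within each treatment (log2 -1.64, SE 0.23, adjusted p = 0.00769), and the sets overlapped across treatments. At 4 h it ran from 0.742 to 15.5 CPM. It lies opposite the pseudogene Tnxa (chr17:34801348-34804561, minus strand), whose reads were not separated here.

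**Figure D4:**
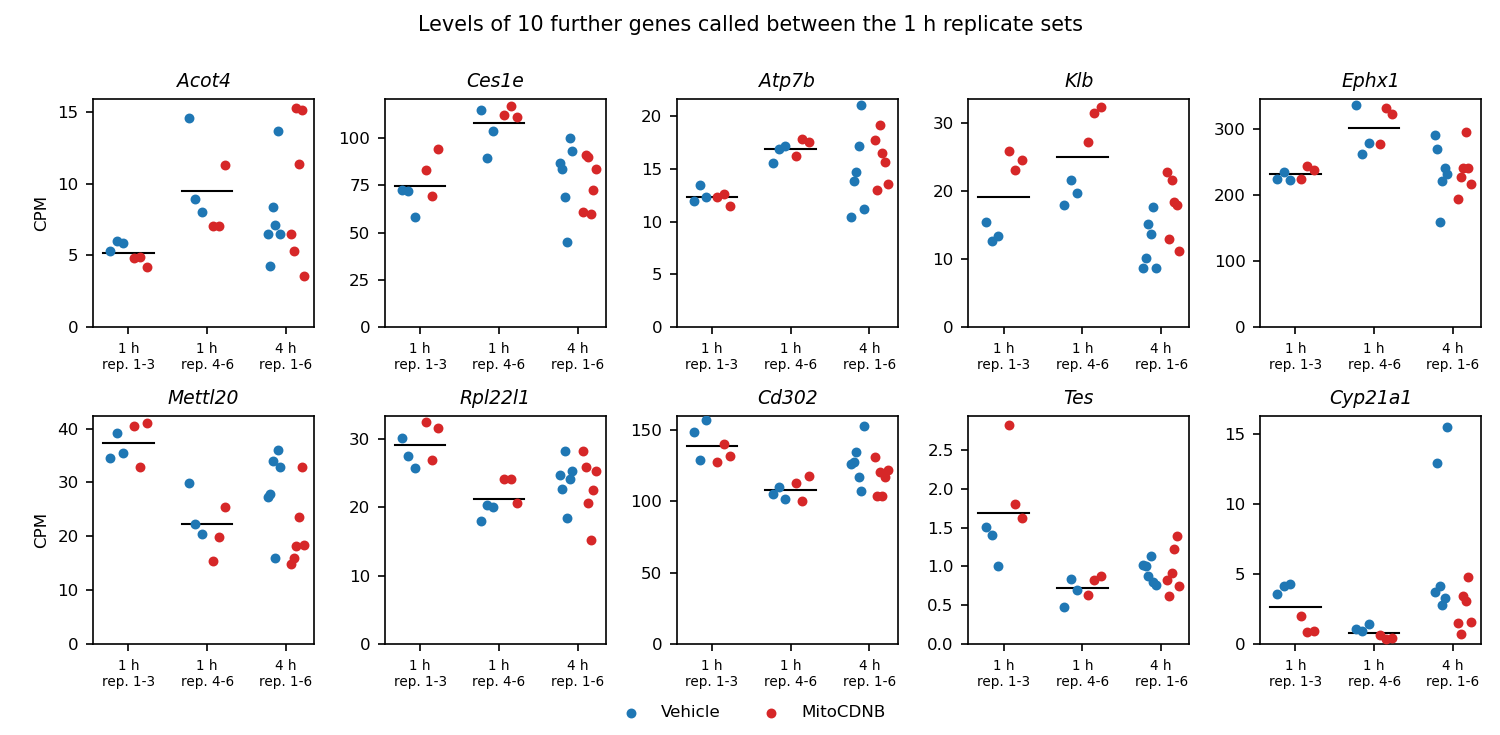
CPM (vertical, from 0) of 10 called genes in each library of 1 h replicates 1 to 3, 1 h replicates 4 to 6 and 4 h, with blue points for vehicle and red points for MitoCDNB and a line at the mean of each 1 h set. Acot4, Atp7b and Ephx1 are higher without overlap in replicates 4 to 6, Mettl20, Rpl22l1, Cd302 and Tes lower without overlap, while Klb and Cyp21a1 separate the sets within each treatment.

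Acute phase genes, which the liver makes under inflammation, lay lower in replicates 4 to 6, though edgeR called none over both treatments. Within vehicle alone it called Serpina3n (log2 -0.76, adjusted p = 0.0408), which is named after its values were seen. Of the 20 listed, all were tested and 16 had an unadjusted p under 0.05, all lower, beside 12.4% of all genes in either direction. Their median log2 fold change was -0.66. DESeq2 called 12 of them, beside 233 of the 13363 genes fitted, and limma-voom 0. Lcn2, a siderophore-binding protein, had a lowest, median and highest value of 2.55, 8.01 and 13.3 CPM in replicates 1 to 3 and 0.895, 1.25 and 2.47 CPM in replicates 4 to 6 (log2 -2.49, SE 0.42, adjusted p = 0.0643). The sets did not overlap.

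The other acute phase genes named here were picked after their values were seen. Orosomucoid (Orm1) was at 574 ± 75.2 and 359 ± 77.2 CPM (adjusted p = 0.0677). Serum amyloid A varied widely within replicates 1 to 3: Saa1 ran from 58.7 to 896 CPM there and from 21.8 to 62.8 CPM in replicates 4 to 6, and Saa2 from 14.6 to 463 and from 7.91 to 16.4 CPM (adjusted p = 0.155 and 0.164). Stat3, a transcription factor of the interleukin-6 response, was at 111 ± 18.6 and 82.8 ± 8.84 CPM (adjusted p = 0.149).

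Chaperones showed the same direction at smaller size. Of 18 genes of endoplasmic reticulum stress, 14 had an unadjusted p under 0.05, all lower, with a median of -0.37, and 0 were called by edgeR, 2 by DESeq2 and 0 by limma-voom. Hsp90b1, the reticulum's HSP90, was at 669 ± 106 and 467 ± 84.6 CPM (adjusted p = 0.14). Of 20 heat shock genes 10 were lower at that p (median -0.31), among them Ahsa1, a cochaperone of HSP90 (55.4 ± 6.43 and 44.9 ± 4.9 CPM, adjusted p = 0.148). Of 30 genes of cytosolic ribosomal proteins 17 were lower at that p (median -0.13), with Rpl14 at 90.0 ± 6.96 and 78.5 ± 2.15 CPM (adjusted p = 0.155). None of these was called by edgeR or limma-voom, while DESeq2 called 2 heat shock genes and 1 ribosomal protein gene. Over all 13363 genes DESeq2 called 233.

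Genes of fatty acid oxidation and of the NRF2 response leaned the other way. Of 20 genes of fatty acid oxidation and ketogenesis, 8 had an unadjusted p under 0.05, all higher (median 0.17), and 0 were called by edgeR, 2 by DESeq2 and 0 by limma-voom. Ppara, the receptor that drives these genes, was at 82.4 to 118 and 126 to 154 CPM, without overlap (adjusted p = 0.0759, named after its values were seen). Of 19 tested targets of NRF2, the factor that responds to electrophiles, Ephx1 was called by edgeR, while DESeq2 called 4 and limma-voom 0. DESeq2's count over all 13363 genes was 233. Of the 19 targets, 5 had an unadjusted p under 0.05, all higher (median 0.19). Among these, Gclm, a subunit of the enzyme that starts glutathione synthesis, was at 83.7 ± 4.71 and 97.7 ± 5.82 CPM without overlap (adjusted p = 0.139). Immediate early genes, which respond within minutes to handling and stress, gave 0 of 27 at an unadjusted p under 0.05, with a median of -0.19, and clock genes 2 of 20, with a median of 0.13.

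**Figure D5:**
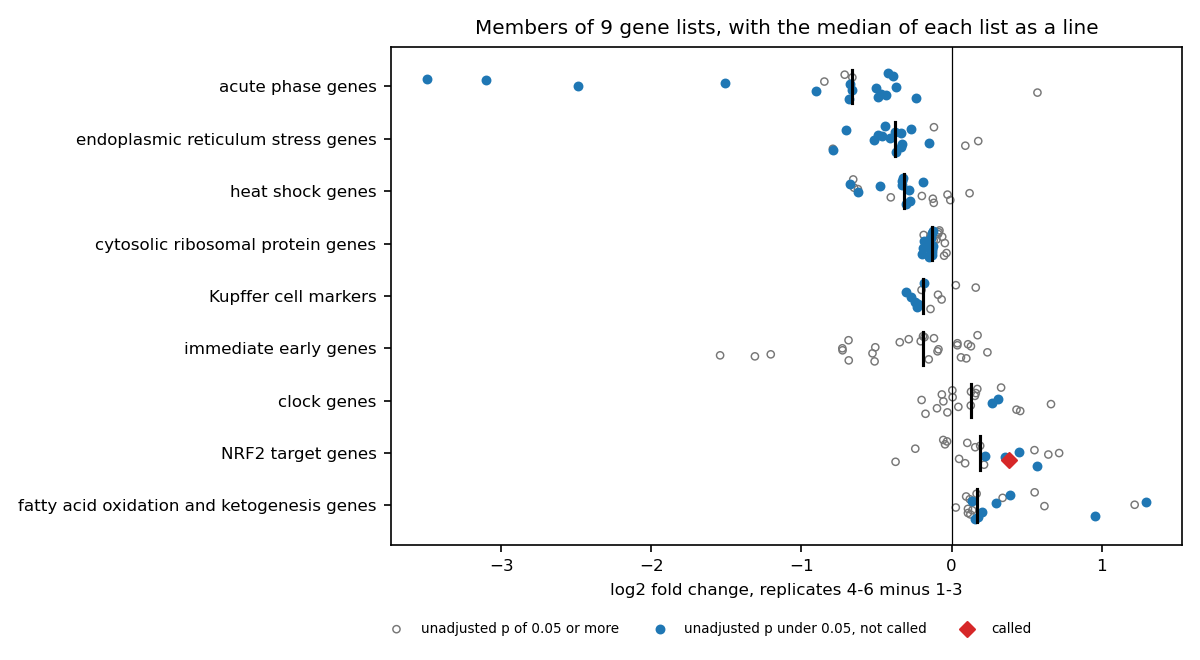
Log2 fold change (replicates 4 to 6 minus 1 to 3, horizontal) of the tested members of 9 gene lists (vertical), 1 point per gene, with a black line at the median of each list. Open points had an unadjusted p of 0.05 or more, blue points one below it, and the red diamond is Ephx1, the called gene. The acute phase list lies furthest left, with a median of -0.66.

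Markers of hepatocytes and of other liver and blood cells numbered 135 tested genes, with 0 called by edgeR, 5 by DESeq2 and 1 by limma-voom. DESeq2 called 233 of all 13363 genes. Of the 135, 25 had an unadjusted p under 0.05 (median log2 -0.01). Of 12 Kupffer cell markers, 6 had an unadjusted p under 0.05, all lower (median -0.19), and 0 were called by edgeR, 1 by DESeq2 and 0 by limma-voom. Their summed level was 420 to 489 CPM in replicates 1 to 3 and 377 to 483 CPM in replicates 4 to 6. Clec4f, the lectin specific to Kupffer cells, was at 89.0 ± 4.05 and 73.8 ± 5.92 CPM without overlap (adjusted p = 0.0677). Cholangiocyte markers had a median of -0.75 over 11 tested genes, with 3 lower and 1 higher at an unadjusted p under 0.05. Krt19, a keratin of bile ducts, reached 11.3 CPM in MitoCDNB replicate 1, while the other libraries of 1 h were at 0.275 to 1.48 CPM. Endothelial markers gave 0 of 16 at that p, with a median of 0.06. In bulk tissue fewer cells of a type and less RNA per cell cannot be told apart, and the part of these cells in the changes of the acute phase and chaperone lists was not tested. The brain reads, the genes of the hepatocyte and the library numbers all changed at the same border between replicates, so they cannot be told apart by design.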

How the data were processed

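RNA of mouse liver was sequenced in 24 libraries. The authors deposited raw counts for 24421 gene symbols. The submitters' processing notes name HISAT2, Trim Galore, DESeq2, CASAVA 1.8.4 and build mm10, and per the labels' protocol the libraries were made with a NEBNext Ultra RNA kit. No source used here names the counting tool, annotation or strand setting.

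The replicate sets, gene lists and rules were chosen with earlier results of these data known. The 12 libraries of 1 h were fitted with edgeR 4.0.16 in R 4.3.3 (filterByExpr with minimum count 10 and minimum total 15, TMM, robust quasi-likelihood), with treatment and set as terms and Benjamini-Hochberg adjustment over 13363 genes. The filter removed 0.0459% of the counts. The interaction and the differences within a treatment came from a fit with 4 cells. The named genes were the 15 largest called changes in each direction with at least 1 CPM in the higher set and no overlap, the 15 largest with at least 5 CPM in both sets, up to 4 called members of each list or otherwise the member with the smallest p, the first 4 genes of each brain list, and for the interaction the 3 smallest p values. Predicted genes were skipped. Ratios of counts of Snap25 and Slc17a7 carry exact intervals or a floor of 3 counts, which cover counting error only.

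The fit was tested on simulated data for this comparison over 13247 genes. The share recovered was 62.7% (42 of 67) at 1.5-fold, 95.5% (64 of 67) at 2-fold and 100% (66 of 66) at 4-fold. Beside these recovered genes there were 15 false calls. The changed genes were drawn from those with a mean of at least 1 CPM. These shares thus do not cover lower genes such as Snap25, Slc17a7 and Camk2a. Over 30 pairs of libraries within a group, chi-square divided by its degrees of freedom was 16.0 to 442, so no pair was a duplicate. Alternatives were DESeq2 1.42.0, limma-voom with quality weights (limma 3.58.1), other size factors, filters and thresholds, the replicate block, all 24 libraries in the fit, no Mup genes, and leaving out each library. Coordinates are from GENCODE's mm10 annotation, by symbol. Some listed genes are not reported here.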

Additional observations from a re-analysis of the deposited data

How the results depend on the processing

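The count of 25 genes between the sets became 8 at an adjusted p under 0.01, 94 with no filter on low counts, 6 with a mean of at least 1 CPM, 233 in DESeq2 (128 higher and 105 lower) and 12 with all 24 libraries in the fit. It was 24 to 28 with the other size factors, without robust estimation, without Mup genes and in limma-voom. The interaction (0 genes) gave 40 in DESeq2. Within vehicle the 15 genes became 1 at an adjusted p under 0.01, 38 with no filter, 0 with a mean of at least 1 CPM, 27 without Mup genes, 267 in DESeq2 and 40 in limma-voom. Within MitoCDNB the 1 gene became 3 with no filter, 46 in DESeq2, 2 in limma-voom and 0 with all 24 libraries. The cause of these shifts was not tested, beyond the smaller number of genes that the CPM filter leaves.

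Leaving out 1 library gave 12 to 59 genes between the sets, 0 to 8 for the interaction, 0 to 89 within vehicle and 0 to 3 within MitoCDNB. Between the sets the count was 59 without MitoCDNB replicate 4, and 12 to 15 without vehicle replicates 2, 3, 4 or 5 or MitoCDNB replicates 3, 5 or 6. Within vehicle it was 0 without vehicle replicate 2 and 89 without vehicle replicate 3, and the interaction reached 8 without the latter. The difference in genes with a count stayed between 297 and 412, that in Mup share between -8.9 and -2.6 percentage points, that in the share of the 50 most counted genes between -7.82 and -2.76 points, and that in total counts between -3.27 and -0.779 M.

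All 25 called genes kept their direction in every setting run. The settings shared libraries with the main fit, so this is a description and not an independent test. Camk2a, Ddn, Ndrg4, Slc17a7 and Snap25 (5 genes) kept their call in every alternative that tested them and in every omission, and 9 kept it in every omission. Acot4, Bcl9l, Dnm1, Ephx1, Mettl20, Slc2a9 and Syp kept it in 2 of 12 omissions. For Camk2a, Ddn, Ndrg4, Slc17a7 and Snap25, no library of the set in which they are low reached the level of the filter on low counts. Under that filter they were tested only through the set in which they are high, which fixed their direction. Their kept calls are thus no independent sign of stability.

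Same-numbered vehicle and MitoCDNB libraries had correlations of their deviations of -0.114 to 0.132, so the replicate numbers were not taken as pairs. With the replicate block, 27 genes were called between the sets and 16 within vehicle, 3 within MitoCDNB, and 1 for the interaction. Promoter motifs were not run, since no list had 4 called members. The filter on low counts left most listed brain genes untested at this depth.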

Other observations

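Several regulators of hepatocyte metabolism had a higher mean in 1 h replicates 4 to 6 without passing edgeR's test over all genes. Bcl6, a repressor that growth hormone lowers in liver, was at 8.80 to 22.7 CPM in replicates 1 to 3 and 19.8 to 56.8 CPM in replicates 4 to 6 (n = 6 each; adjusted p = 0.139), and the difference was 1.87 on the log2 scale in vehicle and 0.75 in MitoCDNB. Smad7, an inhibitor of TGF-beta and BMP signalling that is listed with the iron genes, was at 5.36 ± 1.00 and 8.80 ± 1.58 CPM (adjusted p = 0.0507). Prox1, a transcription factor of hepatocytes that also marks the dentate gyrus, was at 17.9 ± 5.28 and 26.8 ± 3.61 CPM (adjusted p = 0.0677). Nr0b2, the corepressor SHP that bile acids induce, was at 11.9 ± 4.84 and 22.5 ± 6.05 CPM (adjusted p = 0.235), with log2 values of 1.61 in vehicle and 0.25 in MitoCDNB. The difference between treatments did not pass for Nr0b2 or Bcl6 (interaction adjusted p = 0.364 and 0.534).

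Oas1a, an interferon-induced sensor of double-stranded RNA, was lower without overlap (4.54 ± 0.339 and 3.23 ± 0.39 CPM, adjusted p = 0.0713). Its list of 20 interferon-stimulated genes had 2 members at an unadjusted p under 0.05 and a median of -0.10. Of 15 tested NF-kB and chemokine genes 2 were lower at that p, with a median of -0.55, and Il1b was at 4.98 ± 2.21 and 3.30 ± 2.42 CPM (adjusted p = 0.297). Genes of cholesterol synthesis gave 1 of 20 at that p (median 0.04), lipogenesis 3 of 19 (median 0.10) and the cell cycle 0 of 19 (median 0.05). No gene of these lists was called by edgeR.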
